A study of Mus musculus with 12 samples.

Results

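The genes described here are 9 transcription factors that direct epithelial fate, Grhl1, Grhl2, Grhl3, Ovol1, Ovol2, Elf3, Ehf, Klf4 and Klf5. They were chosen by gene symbol, and all 9 were present among the 57010 genes of each deposited table. RNA was sequenced from 2 mouse lines of ovarian cancer, named ID8 and 28-2, grown as 2D culture, with 3 libraries in each of 4 groups. ID8-200f and 28-2-200f cells carried lentiviruses for the miR-200c/141 cluster, under a CMV promoter, and for the cluster of miR-200b, miR-200a and miR-429. ID8EV and 28-2EV cells carried an empty vector lentivirus that encodes EGFP, mCherry and puromycin resistance. ID8-200f cells were kept in puromycin at 40 µg/ml with hygromycin at 50 µg/ml, and ID8EV cells in puromycin at 30 µg/ml. 28-2-200f cells were kept in puromycin at 60 µg/ml with hygromycin at 1000 µg/ml, and 28-2EV cells in puromycin at 30 µg/ml. Drug selection and the miR-200 vectors therefore cannot be told apart in either line. Whether a line was one clone was not given in the sources used here.

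Grainyhead-like factors (GRHL) bind enhancers of junction and adhesion genes and keep epithelial cells epithelial. OVOL proteins are zinc finger repressors that hold down Zeb1 and other drivers of epithelial-to-mesenchymal transition (EMT), ELF3 and EHF are ETS factors largely limited to epithelia, and the Krüppel-like factors KLF4 and KLF5 act in differentiating and in dividing epithelial cells. The miR-200 family represses Zeb1 and Zeb2, which in turn repress the miR-200 genes and many of the genes these factors activate.

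The miRNAs of both vectors fall into 2 seed groups, shown here because the seed decides which 3′UTR letters can pair with them. Capitals mark the seed, bases 2 to 8, in the mature mouse sequences of RefSeq (build GRCm38.p6).
mmu-miR-200b-3p: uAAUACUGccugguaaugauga
mmu-miR-200c-3p: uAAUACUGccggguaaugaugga
mmu-miR-429-3p: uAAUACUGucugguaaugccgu
mmu-miR-200a-3p: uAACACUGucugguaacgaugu
mmu-miR-141-3p: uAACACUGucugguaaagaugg
These sequences lie on the minus strand at chr4:156055685-156055706 (miR-200b), chr6:124718324-124718346 (miR-200c), chr4:156053916-156053937 (miR-429), chr4:156054911-156054932 (miR-200a) and chr6:124717917-124717938 (miR-141). The first 3 share the seed AAUACUG and the other pair shares AACACUG. Mir141, Mir429 and the 3 Mir200 genes had 0 counts in all 12 libraries, so the levels of the vectors' miRNAs were not measured by these counts.

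The longest annotated 3′UTR of each factor (GENCODE M21) was searched for the 7 letters that pair with either seed, written as DNA. Grhl1, Grhl2, Klf4 and Klf5 each held 1 match, and Grhl3, Ovol1, Ovol2, Elf3 and Ehf held none. The matches are shown because Klf5 and Grhl1 are 2 of the members whose levels differed, and capitals mark the letters that pair with bases 2 to 8.
Grhl1: acctctcctcCAGTGTTtac
Grhl2: aaaacttcctCAGTGTTtag
Klf4: agagagagttCAGTATTttt
Klf5: acgtaaacggCAGTGTTtac
The windows lie at chr12:24616399-24616418 (plus strand, Grhl1), chr15:37363178-37363197 (plus, Grhl2), chr4:55528071-55528090 (minus, Klf4) and chr14:99303729-99303748 (plus, Klf5), all in build GRCm38. The Klf4 letters match miR-200b, miR-200c and miR-429, at bases 45 to 51 of a 3′UTR of 982 bases. The other 3 match miR-200a and miR-141. Of 11856 genes tested here with an annotated 3′UTR, 15.6% held CAGTATT, 21.2% held CAGTGTT and 30.5% held either. A match is a description of letters only.

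Total counts per library were 16390953 to 23063875. The 6 markers of simple epithelium summed to 3856 to 4264 CPM (counts scaled to the library total) in ID8-200f and 3138 to 3424 CPM in ID8EV, and to 4911 to 5548 CPM in 28-2-200f and 2894 to 3156 CPM in 28-2EV, mostly from keratins. Epcam was at 0 counts in all 28-2EV libraries. The 7 leukocyte markers summed to at most 2.96 CPM in ID8-200f and at least 2.95 CPM in ID8EV, and to at most 2.09 CPM in 28-2-200f and at least 2.14 CPM in 28-2EV, with Cd3e and Adgre1 at 0 in every group, and the 5 endothelial markers to at most 3.36 CPM in any library. The 7 fibroblast markers summed to 115 to 171 CPM in ID8-200f against 480 to 532 CPM in ID8EV, and to 212 to 400 CPM in 28-2-200f against 81.6 to 487 CPM in 28-2EV; Thy1 was at 0 throughout. Their part in the results that follow was not tested. In such bulk samples, fewer cells with a transcript and less of it per cell cannot be told apart. The library most unlike its group was 28-2EV replicate 2. Its log2 deviations from the group means had an SD of 0.544, against 0.268 to 0.417 in the other 28-2 libraries and 0.187 to 0.260 in ID8 libraries.

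The 9 factors spanned the whole range of detection. Klf4 was the most abundant in every group and Klf5 the next, Grhl1 was low but counted in every library, and Elf3 and Ehf were near 0 except in 28-2-200f. Grhl2, Grhl3 and Ovol1 had 23, 17 and 14 counts over the 12 libraries together. Ovol2 had 0 of 224355340 counts, which allows a level of up to 0.0134 CPM.

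**Figure D1:**
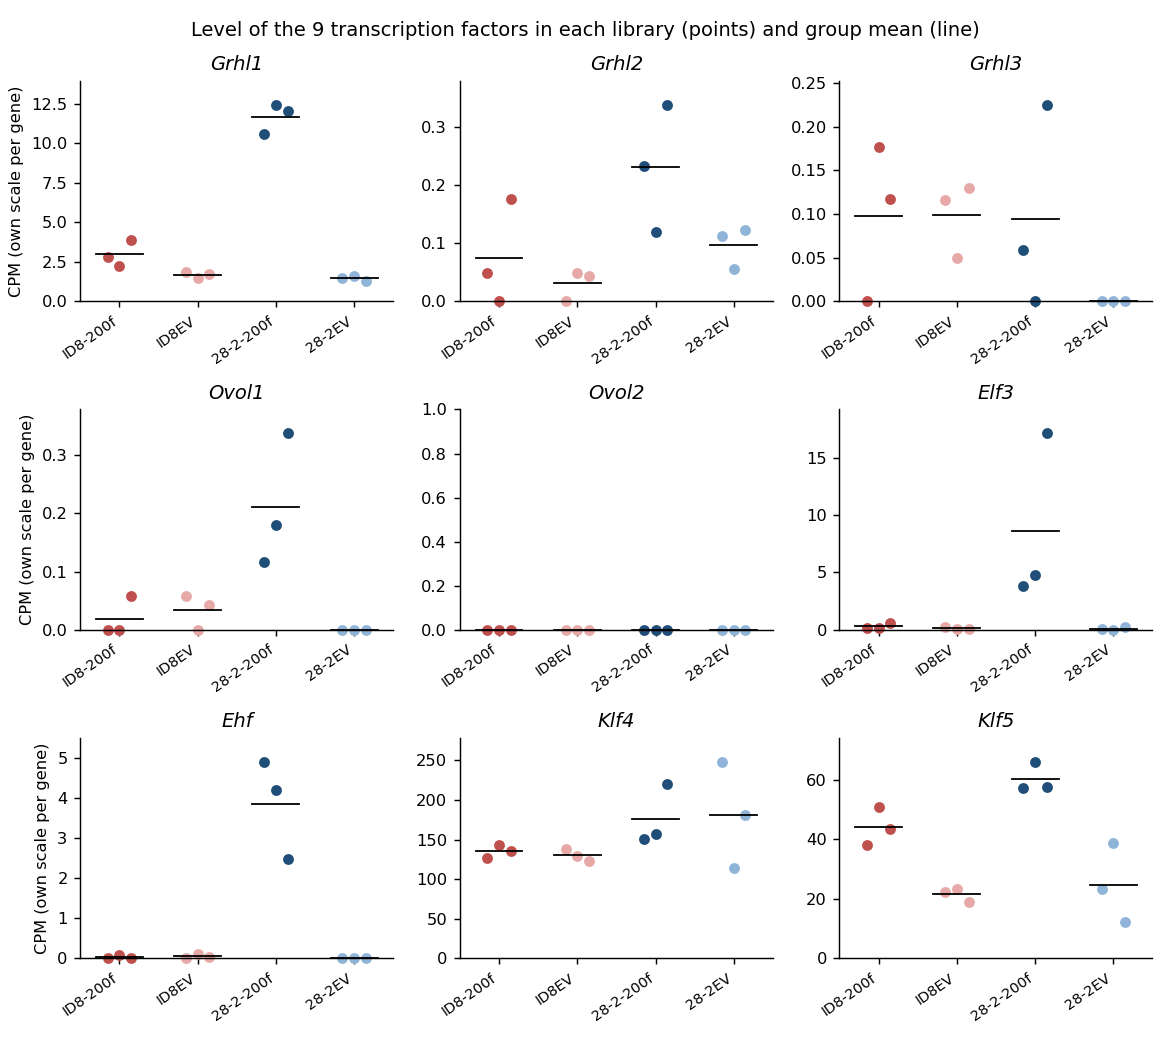
CPM of each factor (vertical axis, linear from 0, with its own scale per gene) in each library, as points, for ID8-200f, ID8EV, 28-2-200f and 28-2EV, with the group mean as a line. Grhl1, Elf3 and Ehf stand highest in 28-2-200f (10.6 to 12.4, 3.85 to 17.1 and 2.48 to 4.90 CPM), the Klf5 points of each 200f group lie above those of the EV group of its line, and the Klf4 points overlap within each line.

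Between genes, levels are compared as TPM, which corrects for transcript length. In ID8-200f cells Klf4 stood at 167 ± 11.6 TPM, Klf5 at 32.0 ± 4.87, Grhl1 at 2.02 ± 0.615 and Elf3 at 0.545 ± 0.401 TPM (SD, n = 3 here and in the next 3 sentences). In ID8EV cells Klf4 stood at 161 ± 10.0 TPM, Klf5 at 15.7 ± 1.54, Grhl1 at 1.16 ± 0.147 and Elf3 at 0.245 ± 0.226 TPM. In 28-2-200f cells the order was Klf4 at 209 ± 46.9 TPM, Klf5 at 42.1 ± 2.86, Elf3 at 14.1 ± 12.2, Grhl1 at 7.66 ± 0.558 and Ehf at 2.51 ± 0.820 TPM. Elf3 and Grhl1 are neighbours in that order whose values overlapped between libraries. In 28-2EV cells Klf4 stood at 214 ± 76.4 TPM, Klf5 at 17.3 ± 9.74, Grhl1 at 0.948 ± 0.129 and Elf3 at 0.191 ± 0.195 TPM. Klf4, Klf5 and Grhl1 were thus ranked alike in ID8-200f, ID8EV and 28-2EV, with no overlap between these neighbours, and the factors below Grhl1 in those 3 groups mostly overlapped one another.

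The first comparison was between ID8-200f and ID8EV cells. Of the 9 factors, Klf5 and Grhl1 rose, none fell, Klf4 was tested and not called, and the other 6 did not pass the filter on low counts. A call here means an FDR under 0.05 in edgeR's quasi-likelihood test, adjusted over the 13280 genes tested. The 2 members called higher stand beside a background of 17.0% of all genes tested called higher and 19.0% called lower, so a call was common in this line. At the stricter cut-off of the study (FDR under 0.01 and a log2 fold change above 1 or below -1) Klf5 passed, and the background was 1.69% higher and 5.72% lower.

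Klf5, a zinc finger activator of proliferating epithelia, had 38.2, 50.8 and 43.5 CPM in the ID8-200f libraries and 22.2, 23.5 and 19.0 CPM in the ID8EV libraries. Every ID8-200f library lay above every ID8EV library, as for 22.9% of all genes tested, while 27.3% lay below. The log2 fold change was 1.07 (SE 0.127, edgeR adjusted p = 2.59e-05), and it was 0.94 to 1.18 when any one library was left out. The call was lost with all 4 groups in one fit, where the 28-2 libraries share the estimate of spread (log2 fold change 1.09, edgeR adjusted p = 0.0610).

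Grhl1, a grainyhead-like activator of desmosomal and barrier genes, had 2.78, 2.21 and 3.91 CPM in ID8-200f, which is 57, 50 and 67 counts. In ID8EV it had 1.87, 1.49 and 1.73 CPM, or 32, 30 and 40 counts. The groups did not overlap, and the log2 fold change was 0.82 (SE 0.285, edgeR adjusted p = 0.0375). This call lay close to the threshold. It was lost when any one of 5 libraries was left out: ID8EV replicate 1 (edgeR adjusted p = 0.0605), 2 (0.121) or 3 (0.0688), or ID8-200f replicate 1 (0.0551) or 3 (0.175). It was kept without ID8-200f replicate 2 (edgeR adjusted p = 0.0234), and lost with limma on log2(TPM + 1) (adjusted p = 0.0680) and with all 4 groups in one fit (edgeR adjusted p = 0.0666).

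Klf4, which drives cell cycle exit and terminal differentiation in epithelia, had 127, 143 and 136 CPM in ID8-200f and 138, 130 and 123 CPM in ID8EV. The values overlapped. The log2 fold change was 0.09 (95% confidence interval -0.10 to 0.27, edgeR adjusted p = 0.450), so the interval holds an increase of up to 0.27. A difference in Klf4 was not detected, which does not show that the levels were equal.

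The remaining factors were too low in ID8 cells for the fitted test. Elf3 had 4, 4 and 10 counts in ID8-200f and 5, 1 and 2 counts in ID8EV, a pooled ratio of 2.25 (95% counting interval 0.933 to 5.99.) Ehf had 0, 2 and 0 counts in ID8-200f and 0, 2 and 1 in ID8EV. Both sets overlapped between the groups. Grhl2 had 1, 0 and 3 counts in ID8-200f and 0, 1 and 1 in ID8EV, Grhl3 had 0, 4 and 2 counts in ID8-200f and 2, 1 and 3 in ID8EV, and Ovol1 had 0, 0 and 1 count in ID8-200f and 1, 0 and 1 in ID8EV. At this depth no difference was detectable for these 3 factors. An exact permutation test of 3 libraries against 3 cannot give a two-sided p below 0.1.

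The second comparison was between 28-2-200f and 28-2EV cells. Grhl1, Elf3 and Ehf rose, none fell, and Klf4 and Klf5 were tested and not called over the 12679 genes of this fit. The background was 2.26% of all genes tested called higher and 2.18% called lower. Elf3 and Ehf entered the test through their counts in 28-2-200f alone, so a count over the tested members carries no weight of its own. At the stricter cut-off named above Grhl1 and Ehf passed and Elf3 did not, against 0.513% of all genes tested passing as higher and 0.244% as lower. Here and in the other comparisons these thresholds were applied to the edgeR results, not to the study's own tests. The study itself reported many more genes past the same thresholds in this line. Whether the members were among them is not given in the sources used here.

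Elf3, an ETS activator of simple and glandular epithelia, had 66, 80 and 304 counts in the 28-2-200f libraries and 2, 0 and 4 counts in the 28-2EV libraries. As levels these were 3.85, 4.79 and 17.1 CPM in 28-2-200f and at most 0.244 CPM in 28-2EV. All 28-2-200f libraries lay above all 28-2EV libraries, and 28-2-200f replicate 3 stood far above the other pair of its group. The ratio of pooled levels was 75.8 (counting interval 34.6 to 208), and the fitted log2 fold change was 6.19 (SE 0.999, edgeR adjusted p = 0.0181). Without 28-2-200f replicate 3 the log2 fold change was 5.15 (edgeR adjusted p = 0.0390), without 28-2EV replicate 2 it was 5.64 (edgeR adjusted p = 0.0192), and the call was lost without 28-2EV replicate 1 (0.0936) or 28-2-200f replicate 2 (0.0572).

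Ehf, the ETS factor most closely related to Elf3 in its epithelial expression, had 84, 70 and 44 counts in 28-2-200f, or 4.90, 4.19 and 2.48 CPM, and 0 counts in each 28-2EV library. Ehf was therefore at least 66.7-fold higher in 28-2-200f, taken against a floor of 3 counts over the 28-2EV group (edgeR adjusted p = 0.00958). The replicate with the most Elf3 had the least Ehf. The call was lost without 28-2-200f replicate 2 (edgeR adjusted p = 0.0538) and kept without any other library, with edgeR adjusted p of 0.00647 to 0.0377.

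Grhl1 had 181, 208 and 214 counts in 28-2-200f and 26, 29 and 21 counts in 28-2EV. Its spread within each group was small, with 10.6, 12.4 and 12.1 CPM in 28-2-200f and 1.46, 1.61 and 1.28 CPM in 28-2EV. The log2 fold change was 3.04 (SE 0.274, edgeR adjusted p = 0.00371), and the pooled ratio was 8.02 (counting interval 6.31 to 10.3). The call held under every alternative run, with edgeR adjusted p of 0.00314 to 0.0300 when any one library was left out.

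Klf5 had 57.2, 66.2 and 57.8 CPM in 28-2-200f and 23.2, 38.7 and 12.1 CPM in 28-2EV. All 3 of the 28-2-200f values were above those of 28-2EV, as were 12.2% of all genes tested, with 13.2% below, but the 28-2EV values spread over more than 3-fold. The log2 fold change was 1.31 (95% confidence interval 0.40 to 2.23, edgeR adjusted p = 0.114), and it was not called. It was called without 28-2EV replicate 2, the library that lay farthest from its group (log2 fold change 1.84, edgeR adjusted p = 0.0117), with DESeq2 (adjusted p = 0.0153), without a filter on low counts (edgeR adjusted p = 0.0165) and with all 4 groups in one fit (edgeR adjusted p = 0.0136).

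Klf4 had 150, 156 and 220 CPM in 28-2-200f and 248, 114 and 181 CPM in 28-2EV. Its values overlapped, and the log2 fold change was 0.01 (95% confidence interval -0.67 to 0.69, edgeR adjusted p = 0.992). The interval is wider than that in ID8, and the sign of the estimate changed with the library left out.

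Of the lowest factors, Ovol1 had 2, 3 and 6 counts in 28-2-200f and 0 counts in each 28-2EV library, at least 3.71-fold higher against the floor of 3 counts. On the opposite strand Ovol1 overlaps Gm31166, which had 4 to 23 counts in 28-2-200f and 3 to 10 counts in 28-2EV. Since the strand setting of the counting was not given in the sources used here, reads of these genes may not be separated and the Ovol1 value is uncertain. Grhl2 had 4, 2 and 6 counts in 28-2-200f and 2, 1 and 2 in 28-2EV, a pooled ratio of 2.43 (95% counting interval 0.796 to 8.79.) Grhl3 had 1, 0 and 4 counts in 28-2-200f and 0 in each 28-2EV library, and the groups overlapped. Elf3 overlaps Gm26642 on the opposite strand, which had 5, 2 and 4 counts in 28-2-200f and 2, 9 and 2 counts in 28-2EV. In ID8 it had 9, 0 and 1 counts in ID8-200f and 4, 0 and 6 counts in ID8EV. These are about as large as the Elf3 counts in 28-2EV and in ID8, so the Elf3 ratios of 75.8 in 28-2 and 2.25 in ID8 are uncertain in the same way.

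**Figure D2:**
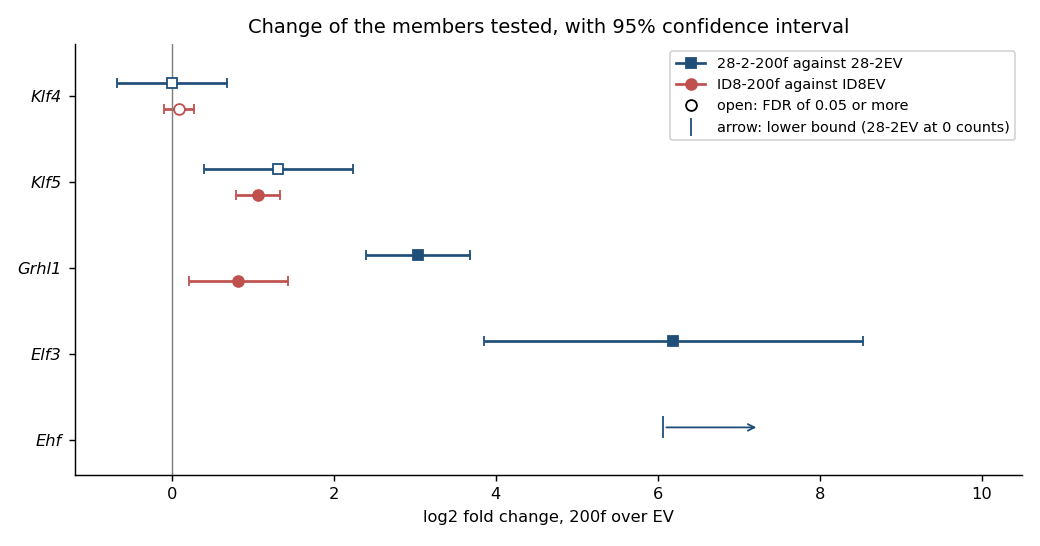
Log2 fold change of 200f over EV (horizontal axis) for the factors that could be tested, in 28-2 (squares) and ID8 (circles), with 95% confidence intervals. Filled symbols have an FDR under 0.05, and the arrow for Ehf is a lower bound, since 28-2EV was at 0 counts. The 2 intervals of Grhl1 do not overlap, while those of Klf4 and of Klf5 do.

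The size of the 200f effect was next compared between the lines, as an interaction over all 12 libraries and 13620 genes. The miRNAs with a significant gain in the study's RT-PCR were not the same in both lines. What part this had in the comparison was not tested. The effect on Grhl1 was larger in 28-2 than in ID8 by 2.22 on the log2 scale (SE 0.360, edgeR adjusted p = 0.00554). It was called in all 12 fits that left out one library. Among all genes tested, 2.26% had a larger and 0.712% a smaller effect in 28-2, and at the cut-off of the study, which Grhl1 alone of the members passed, 0.999% and 0.235%. The effect on Ehf also differed (edgeR adjusted p = 0.0356), with counts near 0 in all 3 other groups, but this call was lost with a replicate block (edgeR adjusted p = 0.0512) and in 7 of the 12 fits that left out one library (edgeR adjusted p of 0.0318 to 0.222 over all 12). Those libraries were ID8EV replicates 2 (0.222) and 3 (0.111), ID8-200f replicates 1 (0.0666) and 3 (0.0676), 28-2EV replicate 1 (0.0531) and 28-2-200f replicates 1 (0.0623) and 2 (0.0677).

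Elf3 differed between the lines by 5.04 on the log2 scale (SE 1.54), which was not called (edgeR adjusted p = 0.116). DESeq2 (adjusted p = 0.00343), edgeR without a filter on low counts (0.000526) and limma on log2(TPM + 1) (adjusted p = 0.0164) called it. The effects on Klf5 (difference 0.25, 95% confidence interval -0.72 to 1.22) and Klf4 (difference -0.07, interval -0.78 to 0.63) were not shown to differ between the lines. Klf5 thus passed the test in ID8 and not in 28-2, without a called difference between both effects.

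Between the control lines, none of the 5 members tested was called in 28-2EV against ID8EV, where edgeR called 2.34% of all genes tested higher and 4.65% lower. DESeq2 and limma called 0 members as well, and the unadjusted p was below 0.05 for Klf4 alone. At the cut-off of the study 0 members passed, beside 0.448% of all genes tested higher and 1.88% lower. Grhl1 averaged 1.45 ± 0.165 CPM in 28-2EV and 1.70 ± 0.192 CPM in ID8EV (SD, n = 3 each), a log2 fold change of -0.19 (edgeR adjusted p = 0.736). Klf4 averaged 181 ± 67.2 CPM in 28-2EV and 130 ± 7.49 CPM in ID8EV, and its log2 fold change of 0.50 (edgeR adjusted p = 0.230) was called only without 28-2EV replicate 2 (0.75, edgeR adjusted p = 0.0226). Grhl3, which was too low to test, had 0 counts in each 28-2EV library and 2, 1 and 3 counts in ID8EV. Grhl2, also too low to test, had 2, 1 and 2 counts in 28-2EV and 0, 1 and 1 counts in ID8EV. As CPM neither gene overlapped between the groups, Grhl3 being lower and Grhl2 higher in 28-2EV. As counts Grhl2 did overlap, with 1 count each in 28-2EV replicate 2 and in ID8EV replicates 2 and 3. Their CPM of 0.0555 against 0.0496 and 0.0434 differed only through the library totals. Of all genes tested, which include neither gene, 16.2% lay lower in every 28-2EV library and 8.27% higher. The Grhl2 ratio of 2.89 had a 95% counting interval of 0.474 to 30.4. Grhl1 was low in both lines with the empty vector (95% confidence interval of the log2 difference -0.76 to 0.39), and Elf3, Ehf, Grhl2, Ovol1 and Ovol2 were near 0 in both.

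Between the lines with the miR-200 vectors, Grhl1, Elf3 and Ehf were higher in 28-2-200f than in ID8-200f, and 3.57% of all genes tested were called higher and 3.67% lower. All 3 also passed the cut-off of the study, as did 1.05% of all genes tested higher and 1.17% lower. For Grhl1, Klf4 and Klf5 each 28-2-200f library lay above each ID8-200f library, as for 12.2% of all genes tested, with 18.3% below. Elf3 and Ehf entered the test through their counts in 28-2-200f, so a count that includes them carries no weight of its own. Grhl1 averaged 11.7 ± 0.992 CPM in 28-2-200f and 2.97 ± 0.867 CPM in ID8-200f (SD, n = 3 each), a log2 fold change of 2.03 (edgeR adjusted p = 0.000456). Elf3 differed by 4.85 on the log2 scale (edgeR adjusted p = 0.00347), and by 3.81 without 28-2-200f replicate 3 (edgeR adjusted p = 0.00853). Ehf had 198 pooled counts in 28-2-200f and 2 in ID8-200f, a pooled ratio of 116 (95% counting interval 31.6 to 961, edgeR adjusted p = 0.000788). These 3 calls held without any one library. Klf5 (log2 fold change 0.50, edgeR adjusted p = 0.424) and Klf4 (0.43, 0.330) were not called. This comparison and the interaction share the 28-2-200f and ID8-200f libraries with those before them, so they are further readings of the same libraries.

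**Figure D3:**
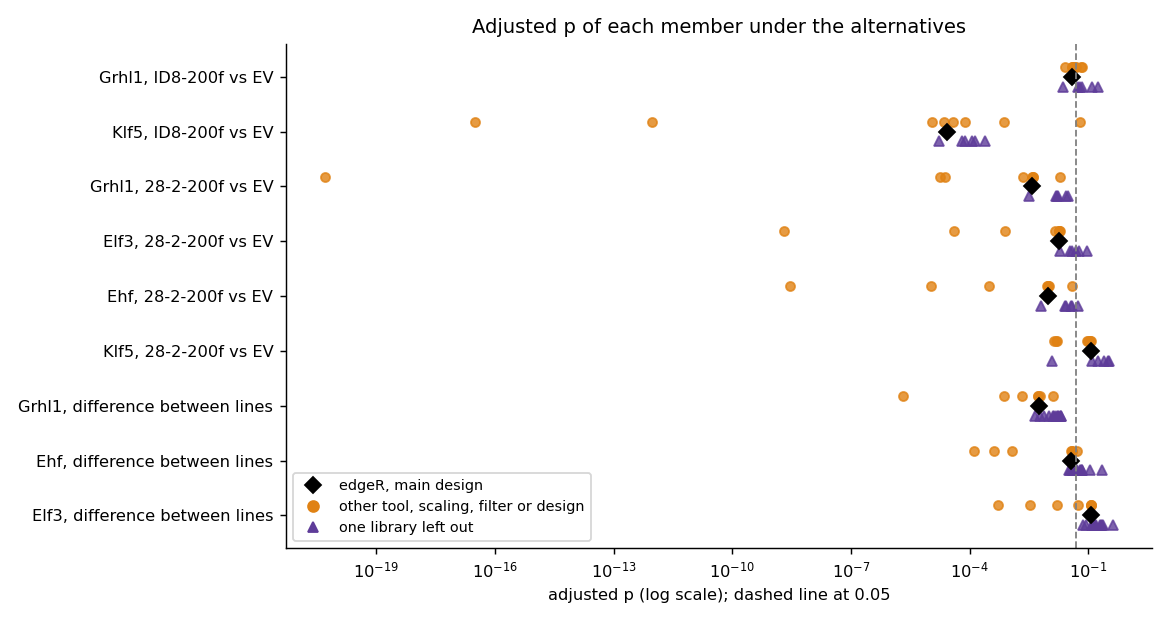
Adjusted p (horizontal axis, log scale, dashed line at 0.05) of the members in each line and for the difference between the lines, with the edgeR result as a diamond, other tools, scalings, filters and designs as circles and fits without one library as triangles. The points of Grhl1 in 28-2 and of its difference between the lines all lie left of the line, while those of Grhl1 in ID8 straddle it.

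Promoters of RefSeq (build GRCm38.p6, 250 bases before to 50 after the start) were present for Grhl1, Grhl3, Ovol2, Elf3 and Klf4, with 2 for Grhl1. They were searched on both strands for the grainyhead core CCGGTT, the E-box CACCTG that ZEB and SNAI repressors bind, the OVO-like core CCGTTA and the KLF box CCACCC. Windows of Elf3 and Grhl1, which rose together in 28-2-200f, are shown with the motif in capitals, on the strand of the gene.
Elf3 grainyhead core: agctcaggttacAACCGGggacgtacgccg
Elf3 E-box: gaatatgcaaatCACCTGggacagggagcc
Elf3 KLF box: tctatttagagcGGGTGGgggcagcgccct
Grhl1 KLF box: tcagcccactgtGGGTGGtgccatccttag
The Elf3 windows lie on the minus strand at chr1:135258523-135258552, chr1:135258595-135258624 and chr1:135258462-135258491, and the Grhl1 window on the plus strand at chr12:24580626-24580655. The grainyhead core stood in 6.83% of all 32851 promoters of the table, the E-box in 20.2%, the OVO-like core in 2.76% and the KLF box in 31.5%. Grhl3 held the E-box and the KLF box 2 times each, Ovol2 held the KLF box, the other Grhl1 promoter and that of Klf4 held none of the 4 motifs, and no matches overlapped. A match is a description of letters and not a bound site.

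The closest relatives of the factors were also measured. Of 9 relatives, 6 were tested in each line, with 0 higher and 2 lower in ID8-200f and 0 called in 28-2-200f by edgeR, DESeq2 or limma (1 at an unadjusted p under 0.05). The background was 17.0% of all genes tested called higher and 19.0% lower in ID8, and 2.26% and 2.18% in 28-2. These counts over 6 genes are therefore not read as a result about the relatives. Tfcp2l1, a CP2-type relative of the grainyhead proteins, fell to 34.1, 27.7 and 30.7 CPM in ID8-200f, against 133, 121 and 131 CPM in ID8EV (log2 fold change -2.03, edgeR adjusted p = 6.78e-09). In 28-2 it had 72.7, 46.7 and 49.4 CPM in 28-2-200f and 59.1, 36.8 and 55.3 CPM in 28-2EV, which overlapped, and the difference between the lines was called (2.23, edgeR adjusted p = 0.000473). Tfcp2 fell in ID8-200f (log2 fold change -0.37, edgeR adjusted p = 0.0309). The ETS relatives Elf1, Elf2 and Elf4 averaged 39.4 to 129 CPM over the groups and were not called in either line, and Elf5 had 0 counts in all libraries.

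Of 15 other Krüppel-like factors, 9 were tested in each line. In ID8-200f 2 were higher and 1 was lower, beside 17.0% of all genes tested called higher and 19.0% lower. Klf6, a widely expressed early response factor, rose to 150 ± 5.72 CPM in ID8-200f, against 104 ± 2.64 CPM in ID8EV (SD, n = 3 each, log2 fold change 0.55, edgeR adjusted p = 0.000155). Klf16 rose (log2 fold change 0.34, edgeR adjusted p = 0.0263) and Klf7 fell (log2 fold change -0.36, edgeR adjusted p = 0.0336). In 28-2-200f 0 of the 9 were called with edgeR, DESeq2 or limma (1 at an unadjusted p under 0.05), and Klf6 stood at 166 ± 31.6 CPM in 28-2-200f and 105 ± 21.6 CPM in 28-2EV (log2 fold change 0.69, edgeR adjusted p = 0.141). The medians of the list were 0.09 in ID8 and 0.05 in 28-2, beside -0.00 and -0.01 over all genes tested.

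Of 15 other transcription factors of epithelial lineages, 7 were tested in ID8, where 3 were higher and 1 lower, and 8 in 28-2, where 2 were higher and 0 lower. The background was 17.0% of all genes tested higher and 19.0% lower in ID8, and 2.26% and 2.18% in 28-2. Both genes called higher in 28-2 entered the test through their counts in 28-2-200f, so their count carries no weight of its own. Trps1, a GATA-type repressor of luminal mammary cells and hair follicles, had 272, 180 and 290 counts in 28-2-200f and 0 in each 28-2EV library, at least 250-fold higher (edgeR adjusted p = 0.00371). It was not called in ID8, with 19, 12 and 8 counts in ID8-200f and 22, 20 and 16 in ID8EV. In ID8-200f Sox9 (log2 fold change 0.71, edgeR adjusted p = 0.00041), Gata3 (0.62, 0.00365) and Hes1 (0.32, 0.0177) rose and Id1 fell (-1.05, 0.00209).

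The factors Zeb1, Zeb2, Snai1, Snai2, Twist1 and Twist2, which drive EMT and oppose the members at many promoters, were tested for all but Twist1. In 28-2-200f 3 fell and 0 rose, but 0 were called without 28-2-200f replicate 2 or 28-2EV replicate 1, 1 without 28-2-200f replicate 1 or 28-2EV replicate 3, and 2 without 28-2-200f replicate 3. The background in 28-2 with all libraries was 2.26% of all genes tested called higher and 2.18% lower. The shares with a library left out are not given here. Twist2 entered the test through its counts in the EV group, so a count that includes it carries no weight of its own. Zeb2 fell to 26.3, 18.6 and 14.8 CPM in 28-2-200f, against 53.1, 60.8 and 51.4 CPM in 28-2EV (log2 fold change -1.45, edgeR adjusted p = 0.0146). Zeb1 fell to 12.1, 13.3 and 9.92 CPM in 28-2-200f, against 26.3, 19.8 and 23.5 CPM in 28-2EV (log2 fold change -0.94, edgeR adjusted p = 0.0402). The 28-2-200f libraries were below all 28-2EV libraries for both genes. In ID8-200f Zeb1 had 20.9, 19.4 and 24.0 CPM and in ID8EV 21.7, 21.8 and 20.6 CPM, which overlapped and was not called (log2 fold change 0.03, edgeR adjusted p = 0.872). These are RNA levels. By western blot the study saw less Zeb1 protein in ID8-200f and in 28-2-200f than in their controls. In its RT-PCR, Zeb1 and Zeb2 RNA did not change significantly in ID8-200f and were significantly lower in 28-2-200f. That assay also gave significantly lower Twist2 in both lines, lower Twist1 and higher Snai2 in ID8-200f, and lower Snai1 in 28-2-200f. Twist2 fell in both lines, to 1 count in ID8-200f against 43 in ID8EV and to 2 counts in 28-2-200f against 69 in 28-2EV (edgeR adjusted p = 0.000444 and 0.0259), and Snai2 rose in ID8-200f (log2 fold change 0.79, edgeR adjusted p = 0.00409).

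A list of 35 genes described as targets of GRHL, ELF3, EHF and KLF factors was measured beside them. In ID8-200f 10 rose and 6 fell of 19 tested (median log2 fold change 0.38, beside -0.00 over all genes tested). In 28-2-200f 7 rose and 0 fell of 18 tested (median 0.87, beside -0.01), and 4 rose without 28-2-200f replicate 2 or 28-2EV replicate 1, 5 without 28-2-200f replicate 3 and 10 without 28-2EV replicate 2. Of all genes tested, 17.0% were called higher and 19.0% lower in ID8, and 2.26% and 2.18% in 28-2. Epcam, Crb3, Krt7 and Cdh1 entered the 28-2 test through their counts in 28-2-200f. In ID8, Spint1, called higher, entered the test through its counts in ID8-200f, and Tjp3, called lower, through those in ID8EV. The counts and medians of both lines, which include such genes, therefore carry no weight of their own. The shares of all genes called with a library left out are not given here. The list was chosen with earlier results of these data known, so its direction is not independent evidence.

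Epcam, an adhesion protein of simple epithelia, had 182, 147 and 148 counts in ID8-200f and 26, 32 and 46 in ID8EV (log2 fold change 2.24, edgeR adjusted p = 4.46e-06), and 269, 191 and 432 counts in 28-2-200f and 0 in each 28-2EV library, at least 301-fold higher (edgeR adjusted p = 0.00531). Krt7, a keratin of simple ducts, had 98.3, 98.6 and 93.4 CPM in ID8-200f and 1.87, 2.28 and 2.30 CPM in ID8EV (log2 fold change 5.51, edgeR adjusted p = 4.05e-12). In 28-2-200f it had 177, 244 and 1118 CPM and in 28-2EV 0.282, 1.17 and 1.71 CPM (95% confidence interval of the log2 fold change 6.46 to 11.53, edgeR adjusted p = 0.00936). Krt7 and Elf3 were thus both highest in 28-2-200f replicate 3.

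Patj, a scaffold of the apical Crumbs complex, rose in ID8-200f (log2 fold change 0.87, edgeR adjusted p = 0.000327) and in 28-2-200f (2.20, 0.00432). Its partner Crb3 rose in 28-2-200f to 7.53, 4.31 and 3.04 CPM, against 0.0563, 0 and 0.0610 CPM in 28-2EV, a pooled ratio of 129 (95% counting interval 35.3 to 1070, edgeR adjusted p = 0.00552). Dsp, the desmosomal linker protein, rose in ID8-200f (log2 fold change 2.56, edgeR adjusted p = 5.07e-09), and in 28-2-200f it averaged 87.1 ± 95.8 CPM with its highest value, 198 CPM, in replicate 3, against 14.3 ± 2.40 CPM in 28-2EV (SD, n = 3 each, edgeR adjusted p = 0.100). Of the tight junction genes, Lsr fell in ID8-200f (log2 fold change -0.86, edgeR adjusted p = 8.42e-05) and so did Cgn (-0.45, 0.00198). Cldn3, a claudin of the same junctions, was called in opposite directions. It fell to 7.52, 6.58 and 6.19 CPM in ID8-200f, against 10.0, 10.1 and 11.3 CPM in ID8EV (log2 fold change -0.60, edgeR adjusted p = 0.00752). In 28-2-200f it rose to 10.4, 15.5 and 13.1 CPM, against 3.32, 4.16 and 2.93 CPM in 28-2EV (log2 fold change 1.94, edgeR adjusted p = 0.0156), and the difference between the lines was called (2.55, edgeR adjusted p = 0.000842). The desmosomal cadherin Dsg2 (log2 fold change -0.51, edgeR adjusted p = 0.000361) and the guanine nucleotide exchange factor Arhgef19 (-1.36, 0.000211) also fell in ID8-200f. Lsr, Cgn, Dsg2 and Arhgef19 were not called in 28-2-200f.

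**Figure D4:**
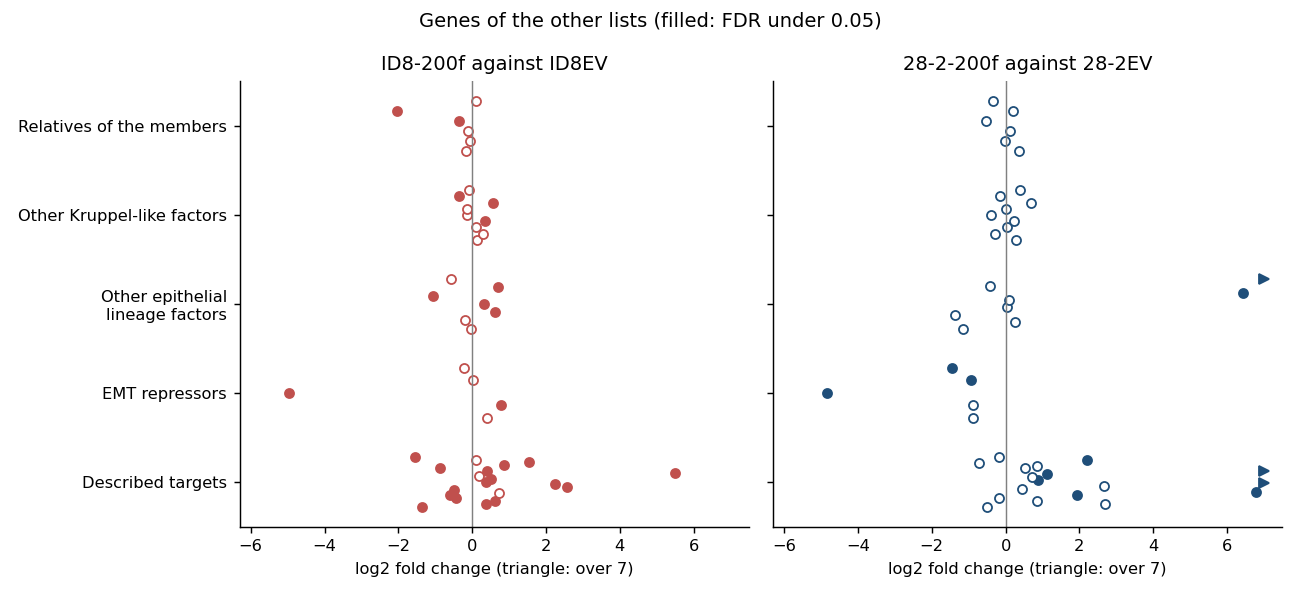
Log2 fold change (horizontal axis) of the tested genes of 5 lists in ID8-200f against ID8EV and in 28-2-200f against 28-2EV, 1 symbol per gene, filled where the FDR was under 0.05. Triangles at the right edge are Trps1, Krt7 and Epcam, with fitted values over 7, of which Trps1 and Epcam had 0 counts in 28-2EV. Among the targets 10 rose and 6 fell in ID8-200f, and 7 rose and 0 fell in 28-2-200f. These counts include genes that passed the filter through a single group, so they carry no weight of their own. Of all genes tested, 17.0% were called higher and 19.0% lower in ID8, and 2.26% and 2.18% in 28-2. The list labelled EMT repressors holds Zeb, Snai and Twist factors, which drive EMT.

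The genes most like each factor across the 12 libraries were found by Pearson correlation of log2 CPM with a pseudocount of 0.5, for factors averaging at least 1 CPM. These values are descriptions over 12 libraries that share 4 groups and their depth. Tns4 (r = 0.98), Slc23a3 (0.98) and Lad1 (0.97) were most like Grhl1. Tns4, a focal adhesion protein, averaged 38.9 CPM in ID8-200f, 13.1 CPM in ID8EV, 349 CPM in 28-2-200f and 10.7 CPM in 28-2EV. Krt6a (r = 0.99), Psca (0.97) and Lad1 (0.95) were most like Elf3. Krt6a averaged 0.310 CPM in ID8-200f, 0 CPM in ID8EV, 49.8 CPM in 28-2-200f and 0 CPM in 28-2EV. Lad1, an anchoring filament protein of basement membranes, stood on the lists of both Grhl1 and Elf3. Letm1 (r = 0.98), Slc5a6 (0.98) and Sf3b4 (0.97) were most like Klf5, and Niban1 (0.97), C9orf72 (0.92) and Rab11fip5 (0.83) most like Klf4.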

How the data were processed

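The authors isolated RNA with a miRVana kit, had libraries sequenced by Novogene and processed the reads on the Genialis platform, with BBDuk for trimming, STAR for alignment and featureCounts for counting. The deposited tables hold whole-number counts per gene, TPM values and CPM values. The deposited CPM equals the count divided by the library total. The labels name build GRCm39. Versions of the aligner and annotation, and whether counting used strand, are not given in the sources used here.

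Groups came from the sample titles, with 3 libraries each, called biological replicates by the study. The quasi-likelihood test of edgeR (version 4.0.16, R 4.3.3) was run on the counts after filterByExpr and TMM scaling, with Benjamini-Hochberg adjustment over all genes tested. Each line was fitted alone, and comparisons across lines used all 12 libraries. Alternatives were DESeq2 1.42.0, limma 3.58.1 on log2(TPM + 1), RLE and library size scaling, no filter or 1 CPM in 3 libraries, the study's cut-off, all 4 groups in one fit, a replicate block and leaving out each library. Intervals (95%, exact) and floors of 3 counts over a group cover counting error only.

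The 9 members and the 10 other lists were chosen with earlier results of these data known. Named are all members, up to 4 genes per list, direction and line by FDR, and the 3 genes most like each member. Other genes in the text were named after their values were seen. Some genes the rule names are not reported here. The steps were tested on simulated data before use. The sequence reference is an older build (GRCm38) than the counts, and was used only for sequences, chromosomes and overlaps. Python 3.11.15, pandas 2.3.3, scipy 1.17.1 and matplotlib 3.10.9 were used.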

Additional observations from a re-analysis of the deposited data

Results flagged for a closer look

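The results here had a 200f effect that differed between the lines in the interaction test over 12 libraries (edgeR, FDR under 0.05). Values are the effect in 28-2 minus that in ID8 on the log2 scale. Grhl1 had a difference of 2.22. Ehf had a fitted difference of 9.68, which depends on the prior count because 28-2EV was at 0, and is no bound. Of the genes of the other lists, Tfcp2l1 (2.23), Patj (1.33), Crb3 (6.08), Cldn3 (2.55), Krt19 (0.96), Cdh1 (2.32), Bnc1 (2.79) and Col1a1 (1.99) had a higher log2 fold change in 28-2, as did Trps1 (11.7) and Epcam (9.12), both again at 0 counts in 28-2EV. Zeb2 (-1.22), Zeb1 (-0.97), Gata3 (-1.98) and Sox9 (-1.13) had more negative effects in 28-2. Groups of 3 libraries were too small for a formal test of single libraries against their group, and what is said of single libraries is a description.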

How the results depend on the processing

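No alternative gave a member called lower in any comparison. In ID8, 2 members were called higher, 1 with limma on log2(TPM + 1), 0 with all 4 groups in one fit, 1 at the study's cut-off, and 1 to 2 when one library was left out. In 28-2, 3 were called higher, 4 with DESeq2, with no filter or with all 4 groups in one fit, 2 at the study's cut-off, and 1 to 4 when one library was left out, with 1 without 28-2-200f replicate 2. For the difference between the lines 2 were called, 3 with DESeq2, limma or no filter, 1 at the study's cut-off, 1 with a replicate block, and 1 to 2 with one library left out. In 28-2EV against ID8EV it was 0, and 0 to 1 with one library left out. In 28-2-200f against ID8-200f it was 3 throughout. The sign of values that were not called changed for Klf4 in 28-2 (-0.047 with library size scaling, -0.00079 with the filter at 1 CPM, -0.22 to 0.28 with one library left out) and for Klf5 in 28-2EV against ID8EV (-0.012 with limma, -0.26 to 0.58 with one library left out). With one library left out it also changed for the difference between the lines of Klf4 (-0.32 to 0.20) and Klf5 (-0.083 to 0.76) and for Elf3 in 28-2EV against ID8EV (-1.14 to 0.71). Of the target list, 12 rose in 28-2-200f with DESeq2 or with no filter and 13 with all 4 groups in one fit, against 7 with edgeR in 28-2 alone, and in ID8-200f 5 rose and 1 fell with all 4 groups in one fit, against 10 and 6. The shares of all genes called under these alternatives are not given here. The changes in these counts are therefore not read as a result about the members or the targets. The causes were not tested. No pairing by replicate number was seen: deviations of same-numbered 200f and EV libraries correlated at -0.131 to 0.0589 in ID8 and -0.343 to 0.238 in 28-2. Libraries with different numbers correlated at -0.100 to 0.145 in ID8 and -0.530 to 0.502 in 28-2. Whether samples were paired under other numbers was not tested. The replicate block ended the call of Ehf for the difference between the lines (edgeR adjusted p = 0.0512) and changed no other call. Depth limits Grhl2, Grhl3, Ovol1 and Ovol2, where 1 count is worth about 0.05 CPM.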

Other observations

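The marker lists gave the following counts, beside 17.0% of all genes tested called higher and 19.0% lower in ID8, and 2.26% and 2.18% in 28-2. Epcam and Cdh1 entered the 28-2 test through their counts in 28-2-200f, and Acta2 and Pecam1 the ID8 test through ID8EV. A count that includes them carries no weight of its own. Of the simple epithelium markers, 4 of 5 tested rose in ID8-200f (Epcam, Krt18, Krt8 and Cdh1) and 2 of 5 in 28-2-200f (Epcam and Krt19). The study's RT-PCR found no significant change of Cdh1 in either line. Of the 7 mesothelial and ovarian surface markers, Msln rose and 6 fell in ID8-200f, and 1, Lrrn4, fell in 28-2-200f. Of the fibroblast markers, 5 of 5 tested fell in ID8-200f and 2 of 4 in 28-2-200f (Pdgfra and Col1a1). Of the endothelial markers, Pecam1 alone was tested and fell in ID8-200f, and of the leukocyte markers 1 was tested and not called in either line.

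28-2-200f replicate 3 was looked at after its Elf3 value had been seen. It held the highest value of its group for 11 of 18 tested genes on the target list (61.1%), against 28.3% of all genes tested. Cdh1 was lowest there, with 3.09, 4.55 and 1.47 CPM in 28-2-200f replicates 1, 2 and 3, and so was Ehf.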
